A study of Mus musculus with 44 samples.

Results

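The Kruppel-like factors (KLFs) are a family of transcription factors, and 10 of their genes were followed here through 44 mouse RNA-seq libraries. The members were picked by name, as Klf2, Klf3, Klf4, Klf5, Klf6, Klf7, Klf9, Klf10, Klf13 and Klf15, out of 54532 genes in the deposited count tables. They were chosen with earlier results of these data known. All 10 passed the filter on low counts in both tables. By its title the series deals with FRMD5, a FERM-domain protein, as a hub that alters functions of the glucocorticoid receptor. L929, a fibroblast line from mouse connective tissue, gave 16 libraries in 4 groups: Full-length (Isoform 2), delta-IDR combined domain (Isoform 2), delta-coiled-coil and -LCDs (Isoform 2), and Control. They are called full-length, delta-IDR, delta-CC-LCD and control below. The design text describes lines with truncated FRMD5 isoform 2 examined after 4 h of dexamethasone (DEX), a synthetic glucocorticoid. The control's titles name no construct. The library names of control and full-length share a code that differs only in its last letter, C or D, and its meaning is not stated. No label says whether control received DEX. A difference in construct and a difference in DEX therefore cannot be told apart in any comparison with control. Construct groups below are full-length, delta-IDR and delta-CC-LCD, and what control carries is not known. Primary cortical neurons of mice gave the other 28 libraries, in 7 groups. The interfering peptide was given with DEX at 1, 3, 10, 30 or 100 µM, and the control peptide at 100 µM was given with DEX or without it. Each group has 4 libraries. The labels do not say how the constructs were delivered, whether each line is 1 clone, or whether libraries came from separate cultures or animals, so a p-value here is set only by how far these libraries scatter, and that scatter may be technical.

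KLF proteins bind GC-rich and CACCC sequences through zinc fingers at their C-terminal end, and their N-terminal parts recruit coactivators or corepressors. Several KLF genes are immediate responders to growth factors, stress or hormones, and Klf9 and Klf15 are textbook targets of the glucocorticoid receptor. In neurons the family is known for setting the capacity for axon growth, which Klf6 and Klf7 promote and Klf4 and Klf9 restrain.

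The start regions of 5 members that moved in these data are printed because the members differ in which sequences lie there. They are RefSeq windows of GRCm38.p6, from 250 bases before to 50 after the start site, read 5′ to 3′ on the gene's strand. Capitals mark GC boxes (GGGCGG) and CACCC boxes (CACCC) on either strand, the sequence types that KLF and Sp proteins bind. The windows are chr19:23140976-23141275 on the plus strand for Klf9, chr6:90462326-90462625 plus for Klf15, chr8:72318812-72319111 plus for Klf2, chr4:55532426-55532725 minus for Klf4 and chr13:5861239-5861538 plus for Klf6.
Klf9: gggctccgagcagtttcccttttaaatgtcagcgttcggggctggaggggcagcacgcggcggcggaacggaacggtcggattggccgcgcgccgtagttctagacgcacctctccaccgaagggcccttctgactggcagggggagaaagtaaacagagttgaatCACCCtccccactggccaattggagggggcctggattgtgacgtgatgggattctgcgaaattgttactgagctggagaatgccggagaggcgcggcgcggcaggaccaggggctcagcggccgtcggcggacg
Klf15: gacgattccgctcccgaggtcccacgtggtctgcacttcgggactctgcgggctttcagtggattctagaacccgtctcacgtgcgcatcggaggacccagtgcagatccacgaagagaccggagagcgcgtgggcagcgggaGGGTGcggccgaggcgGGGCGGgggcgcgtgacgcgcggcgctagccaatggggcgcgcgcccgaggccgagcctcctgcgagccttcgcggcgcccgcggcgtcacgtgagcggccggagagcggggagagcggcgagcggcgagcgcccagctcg
Klf2: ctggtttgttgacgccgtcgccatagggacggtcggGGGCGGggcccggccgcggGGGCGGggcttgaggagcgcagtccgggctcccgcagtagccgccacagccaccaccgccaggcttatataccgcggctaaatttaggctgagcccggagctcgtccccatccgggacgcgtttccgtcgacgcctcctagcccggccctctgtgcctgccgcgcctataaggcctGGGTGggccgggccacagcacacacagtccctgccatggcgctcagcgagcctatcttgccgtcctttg
Klf4: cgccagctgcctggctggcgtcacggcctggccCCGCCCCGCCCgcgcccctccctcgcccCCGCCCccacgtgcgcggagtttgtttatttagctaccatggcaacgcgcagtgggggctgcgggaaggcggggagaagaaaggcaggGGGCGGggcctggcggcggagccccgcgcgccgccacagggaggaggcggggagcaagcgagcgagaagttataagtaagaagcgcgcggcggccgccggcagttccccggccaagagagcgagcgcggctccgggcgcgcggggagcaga
Klf6: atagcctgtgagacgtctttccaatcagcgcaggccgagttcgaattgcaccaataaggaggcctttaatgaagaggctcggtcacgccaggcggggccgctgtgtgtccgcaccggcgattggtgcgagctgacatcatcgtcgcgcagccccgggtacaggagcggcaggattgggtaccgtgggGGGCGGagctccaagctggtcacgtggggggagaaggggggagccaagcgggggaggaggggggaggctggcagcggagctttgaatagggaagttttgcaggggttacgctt

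Windows were at hand for 8 of the 10 members, with Klf5 and Klf10 named only. GC boxes were present in 7 of these 8 windows and in 35.7% of 32851 promoters of the same length. Klf3 held 6, Klf4 held 4, some of which overlap, Klf13 held 3, Klf2 held 2, and Klf6, Klf7 and Klf15 held 1 each. Klf9 held none. CACCC boxes lay in 6 of the 8 windows, against 57.5% of all promoters, with none in Klf4 or Klf6. The windows were GC-rich, with 58.3% to 76.7% G or C, against a median of 52.7% over all promoters. The glucocorticoid half-site AGAACA and the full glucocorticoid response element, in which that half-site faces its reverse complement, matched none of the 8 windows on either strand. The half-site matched 19.0% of all promoters and the full element 0.00913%. Background work in mammals and frogs places the hormone-responsive enhancers of Klf9 far upstream of such a window. The E-box CACGTG, which clock proteins bind, occurred in Klf15 3 times, at bases -228, -172 and -3 from the start site, and once each in Klf4 and Klf6. It occurred in 7.15% of all promoters. A site that matches the MEF2 consensus, CTAAATTTAG at base -118, lay in Klf2 and in no other member window, against 3.19% of all promoters. The cAMP response element TGACGTCA (1.79% of promoters), the CArG box (1.63%) and the TATA box TATAAA (13.6%) matched none of the 8 windows. These matches describe letters only. In the deposited mm10 coordinates 4 member genes overlap others. Klf3 (chr5:64803388-64832901) overlaps C230096K16Rik on its own strand and Gm20033 on the opposite strand, which averaged 3.19 and 2.75 counts in L929 and 20.2 and 36.9 counts in neurons. Klf7, Klf9 and Klf13 overlap genes that averaged at most 1.86 counts. Whether the counting used strand is not stated in the labels, so reads of such pairs may be shared.

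Total counts were 17211270 to 18313407 per L929 library and 13685236 to 17083701 per neuron library. Values below are CPM, the counts per 1000000 reads counted, after scaling by edgeR's TMM method. Log2 changes come with their standard error, and a gene is called when its adjusted p is below 0.05. L929 libraries showed fibroblast markers at a summed 6810 to 8960 CPM and 6 neuron markers at a summed 0.0522 to 1.14 CPM, with Snap25 and Syt1 at 0. The largest parts of the fibroblast sum were Vim (mean 4060 CPM) and Col1a2 (2220 CPM), and Vim also averaged 487 CPM in neurons. Thy1, of the same list, averaged lower in L929 (0.117 CPM) than in neurons (4.16), and the other fibroblast markers averaged higher in L929. Rbfox3, the 1 neuron marker tested in L929, ran from 0.0522 to 1.08 CPM. It was called higher than control in full-length (2.01), delta-IDR (2.51) and delta-CC-LCD (3.36). Neuron libraries showed 6 neuron markers at a summed 2850 to 3400 CPM and 6 microglial markers at 19.0 to 28.1 CPM. The 7 endothelial markers summed to 93.7 to 128 CPM, against 2.05 to 4.55 CPM in L929, so the cultures held RNA of other cell types. The 6 astrocyte markers summed to 274 to 356 CPM, but also to 177 to 380 CPM in L929, so that sum alone does not mark astrocytes. Aldoc, Gja1 and Aldh1l1 averaged higher in L929 than in neurons. Slc1a3 (139 against 0.0341 CPM), Gfap (3.32 against 1.41) and Aqp4 (1.41 against 0.0249) averaged higher in neurons. RNA of a mixed culture does not tell fewer cells of a type from less RNA per cell. Libraries 1 and 3 resembled each other, and so did libraries 2 and 4, in 7 of 7 neuron groups and in 2 of 4 L929 groups, with differences above sampling noise. Each result was therefore also computed with these libraries summed, and calls that this ends are named. In L929 the 6 microglial markers, with P2ry12 at 0 throughout, summed to 10.6 to 12.7 CPM in full-length, 15.4 to 19.3 in delta-IDR, 11.7 to 16.4 in delta-CC-LCD and 5.81 to 8.61 in control. This sum moved with Tmem119, at 10.3 CPM in full-length, 14.9 in delta-IDR, 12.5 in delta-CC-LCD and 4.73 in control, while Csf1r was not called in any of the 3 comparisons (-0.39, -0.22 and -0.44). Aif1, Cx3cr1 and C1qa averaged 0.0179 to 0.125 CPM. C1qa was at 0 in 15 of the 16 L929 libraries, and its 5 counts lay in delta-IDR. The mural and meningeal markers Dcn (22 counts), Lum (18) and Rgs5 (9) were likewise at 0 in 15 libraries each and present only in delta-IDR. The part of these markers in the construct results was not tested. Frmd5 had 5 to 20 counts per L929 group, too few to check the constructs, and 81.2 to 99.5 CPM in neurons. The 4 glucocorticoid targets Fkbp5, Tsc22d3, Per1 and Sgk1 were all called higher in every construct group than in L929 control. Their median log2 change from control was 3.5 (full-length), 3.33 (delta-IDR) and 3.73 (delta-CC-LCD). Of all genes tested, 30.3%, 32.8% and 31.9% were called higher in these 3 comparisons. Of the 4 targets, only Per1 was called in neurons for DEX against no DEX (0.31 ± 0.08, adjusted p = 0.00824). With the libraries summed its adjusted p was 0.145.

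To compare the members with each other, CPM was divided by gene length in kb as the deposited tables give it. Full-length libraries held 217 ± 5.28 CPM per kb over the 10 members, delta-IDR 182 ± 4.28, delta-CC-LCD 199 ± 7.39 and control 105 ± 1.34 (SD, n = 4 each). Klf6 was the member with the highest level per length in every L929 group, at 59.2 ± 3.92 CPM per kb in full-length and 37.9 ± 1.21 in control. Next in control came Klf10 at 21.1 ± 0.785 CPM per kb, then Klf9 at 13.6 ± 0.793 and Klf15 at 12.9 ± 0.580, whose libraries overlapped. Klf9, at 48.4 ± 2.67 CPM per kb, stood above Klf10 (39.2 ± 2.75) in full-length, and Klf10 and Klf15 (38.5 ± 0.535) overlapped there. As a share of the summed level per length, Klf9 and Klf15 made up 22.3% and 17.7% in full-length, against 13% and 12.3% in control, while Klf6 made up 27.2% in full-length and 36.2% in control.

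**Figure D1:**
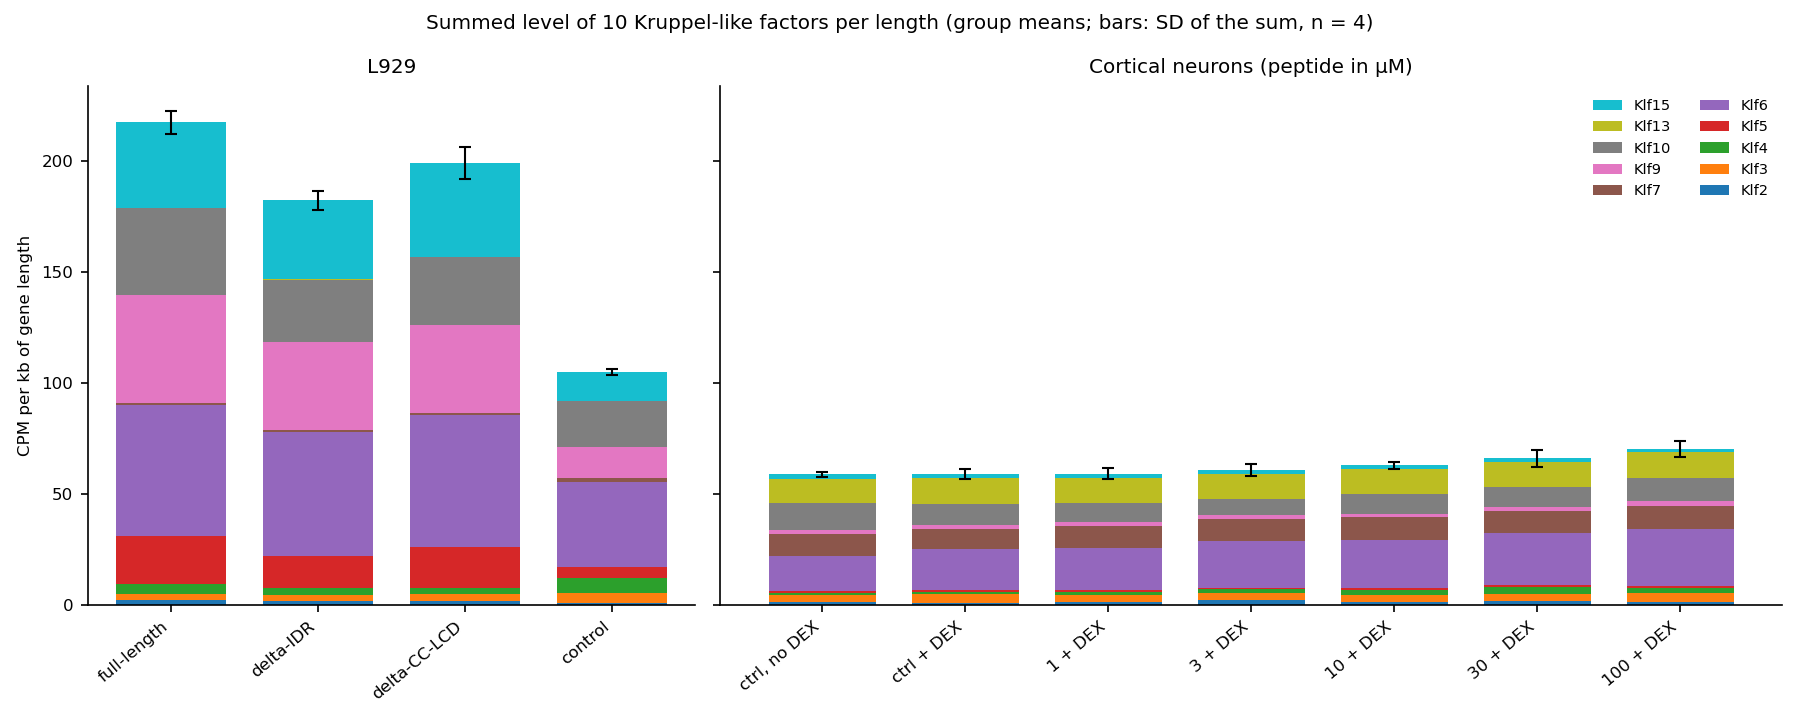
Stacked bars give the group mean level of the 10 KLF genes in CPM per kb of gene length, with the 4 L929 groups on the left and the 7 neuron groups on the right, and error bars show the SD of the sum over 4 libraries. The L929 and neuron tables were normalized separately. The sum is 217 in full-length and 105 in control, and 70.1 in neurons with DEX and 100 µM interfering peptide.

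The neuron profile was of another kind. Klf6 was again highest per length in each of the 7 groups, with Klf13, Klf10 and Klf7 in the next 3 places in every group, though not in 1 order. Without DEX Klf10 stood above Klf13 with no overlap, and at 3 µM Klf7 (9.92 ± 0.123 CPM per kb) stood above Klf10 (7.36 ± 0.771) with no overlap. Klf3 came next, with the other 5 members between 0.653 and 2.78 CPM per kb. In control peptide with DEX, Klf6 stood at 18.2 ± 1.22, Klf13 at 11.5 ± 0.868, Klf10 at 9.56 ± 0.393, Klf7 at 9.37 ± 0.810 and Klf3 at 3.75 ± 0.214 CPM per kb. There Klf10 overlapped Klf7, Klf15 overlapped Klf9, and Klf4, Klf2 and Klf5 overlapped their neighbours. The next values set levels of separately normalized tables side by side and were not tested. Klf13, a factor studied in T cells and heart, ran from 0.208 to 1.13 CPM in L929 and from 71.6 to 92.2 CPM in neurons. Klf7 ran from 5.69 to 19.4 CPM in L929 and from 67.0 to 89.0 CPM in neurons. Klf9 ran from 41.2 to 165 CPM in L929 and from 4.51 to 8.14 CPM in neurons.

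In L929, 9 of the 10 members differed between full-length and control, 6 higher and 3 lower, and the groups did not overlap for any of these 9. The share of all genes whose groups did not overlap was not counted. A lack of overlap, here and below, therefore only describes the libraries and adds nothing to a call. Over all 14118 genes tested, 59.1% were called in this comparison, 30.3% higher and 28.7% lower. The members' median log2 change was 0.84, against -0.01 over all genes. In the 2 deletion groups the same 6 members rose and the same 3 fell against the same control libraries. There 64.4% of all genes were called for delta-IDR, 32.8% higher and 31.6% lower, and 64.6% for delta-CC-LCD, 31.9% higher and 32.7% lower. The members' medians were 0.58 and 0.72, against -0.01 and -0.02 over all genes. Since the 3 comparisons share the control libraries, their likeness is not a separate result.

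Klf9, a glucocorticoid- and thyroid-hormone-induced repressor that recruits Sin3a, had 164, 157, 146 and 165 CPM in full-length. It had 128, 125, 133 and 125 CPM in delta-IDR, and delta-CC-LCD had 133, 131, 130 and 126 CPM. In control it had 44.9, 41.2, 47.2 and 43.9 CPM. Every construct library lay far above every control library, and full-length lay above both deletions. The log2 change against control was 1.83 ± 0.05 in full-length, a 3.56-fold rise (adjusted p = 3.10e-24). It was 1.53 ± 0.05 for delta-IDR, while delta-CC-LCD showed 1.55 ± 0.05.

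Klf15, which drives amino acid breakdown and is induced by glucocorticoids in muscle and liver, had 108, 109, 106 and 106 CPM in full-length. Its libraries had 104, 94.0, 96.6 and 103 CPM in delta-IDR, and delta-CC-LCD had 123, 116, 113 and 120 CPM. Control libraries had 36.1, 36.2, 37.6 and 33.8 CPM. The 4 groups did not overlap, in the order delta-CC-LCD, full-length, delta-IDR and control. Against control Klf15 rose by 1.58 ± 0.05 in full-length (2.99-fold, adjusted p = 1.49e-22), and the deletions gave 1.47 ± 0.05 (delta-IDR) and 1.71 ± 0.05 (delta-CC-LCD).

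Klf5, which promotes proliferation in intestinal crypts and vessel walls, showed the largest log2 change of the 10 members in full-length against control. It had 119, 101, 124 and 107 CPM in full-length and 77.3, 73.1, 73.3 and 78.5 CPM in delta-IDR. It had 112, 97.4, 91.3 and 87.3 CPM in delta-CC-LCD and 29.1, 27.0, 25.9 and 27.0 CPM in control. Full-length and delta-CC-LCD overlapped, delta-IDR lay below both, and control lay lowest. The rise over control was 2.05 ± 0.07 in full-length (4.14-fold, adjusted p = 3.94e-18), and the deletions gave 1.47 ± 0.07 (delta-IDR) and 1.83 ± 0.07 (delta-CC-LCD).

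Klf10, first described as a TGF-beta-induced early gene, had 159, 173, 150 and 174 CPM in full-length. It had 121, 107, 126 and 119 CPM in delta-IDR, while delta-CC-LCD had 138, 131, 131 and 112 CPM. Control libraries had 83.6, 91.5, 88.2 and 88.5 CPM. All construct libraries exceeded all control libraries. The rise over control was 0.90 ± 0.06 in full-length (1.86-fold, adjusted p = 1.73e-12), and the deletions gave 0.43 ± 0.06 (delta-IDR) and 0.54 ± 0.06 (delta-CC-LCD).

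Klf6, an injury- and growth-induced activator, had the most reads of the family. Its libraries ran from 239 to 280 CPM in full-length, from 228 to 253 in delta-IDR, from 251 to 282 in delta-CC-LCD and from 161 to 173 in control. The construct groups overlapped one another and stood apart from control. Its rise was 0.64 ± 0.05 in full-length (1.56-fold, adjusted p = 4.55e-13), and the deletions gave 0.56 ± 0.05 (delta-IDR) and 0.65 ± 0.05 (delta-CC-LCD).

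Klf2, which keeps endothelial cells and T cells quiescent, was scarce. It had 3.28, 4.69, 4.16 and 3.26 CPM in full-length, against 1.46, 0.468, 1.35 and 0.681 CPM in control. The groups did not overlap, and the rise was 1.95 ± 0.25 (3.86-fold, adjusted p = 7.89e-08). In delta-IDR, with 2.74 to 3.72 CPM, the rise was 1.69 ± 0.25, and in delta-CC-LCD, with 2.3 to 3.65 CPM, it was 1.59 ± 0.26. The summed level of 7 endothelial markers was 2.13 to 4.28 CPM in full-length, 2.08 to 3.07 in delta-IDR, 2.05 to 2.99 in delta-CC-LCD and 2.98 to 4.55 CPM in control. Of these markers Flt1 and Pecam1 averaged 2.15 and 0.67 CPM, with reads in all 16 L929 libraries. Cdh5, Cldn5, Kdr and Tek averaged at most 0.0875 CPM, and Emcn was at 0 throughout.

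**Figure D2:**
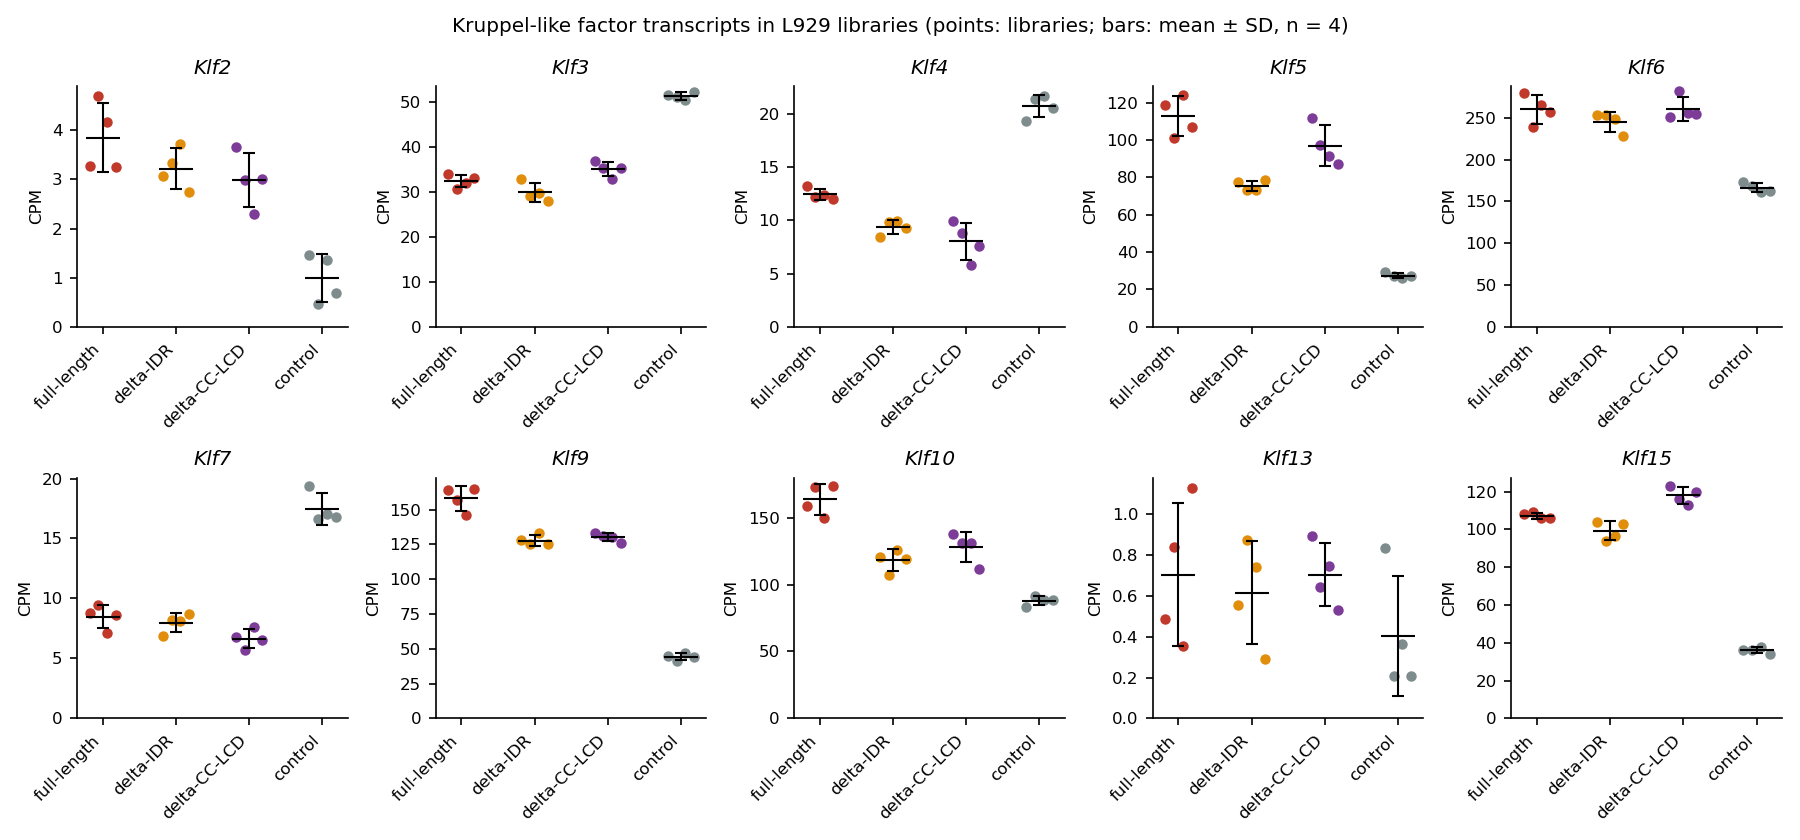
Each panel plots 1 KLF gene in L929, with CPM from 0 on the y axis and the full-length, delta-IDR, delta-CC-LCD and control groups on the x axis. Points are libraries, and bars give the mean ± SD of 4. Klf2, Klf5, Klf6, Klf9, Klf10 and Klf15 lie higher in the 3 construct groups than in control, Klf3, Klf4 and Klf7 lie lower, and Klf13 stays near or below 1.13 CPM.

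Klf4, Klf7 and Klf3 fell. Klf4, a pluripotency and epithelial differentiation factor, had 13.2, 12.2, 12.4 and 12 CPM in full-length. It had 8.43, 9.85, 9.89 and 9.26 CPM in delta-IDR, 9.92, 8.80, 5.81 and 7.56 CPM in delta-CC-LCD, and 19.3, 21.4, 21.7 and 20.5 CPM in control. All construct libraries lay below all control libraries, and the 2 deletion groups overlapped below full-length. The log2 change against control was -0.73 ± 0.10 in full-length (adjusted p = 4.30e-07), and the deletions gave -1.15 ± 0.11 (delta-IDR) and -1.37 ± 0.11 (delta-CC-LCD).

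Klf7, an activator known for neurite outgrowth, had 8.75, 9.43, 7.13 and 8.65 CPM in full-length, against 19.4, 16.6, 17.0 and 16.8 CPM in control. Its log2 change was -1.04 ± 0.11 in full-length (adjusted p = 7.84e-10), and the deletions gave -1.13 ± 0.11 (delta-IDR) and -1.39 ± 0.11 (delta-CC-LCD). Klf3, a repressor that works through CtBP proteins, had 34.0, 30.8, 32.0 and 33.1 CPM in full-length, against 51.6, 51.1, 50.4 and 52.4 CPM in control. Its log2 change was -0.66 ± 0.06 in full-length (adjusted p = 2.96e-11), and the deletions gave -0.78 ± 0.06 (delta-IDR) and -0.55 ± 0.06 (delta-CC-LCD). For both genes the construct and control groups did not overlap. Klf13 had 0.486, 0.841, 0.357 and 1.13 CPM in full-length, against 0.835, 0.208, 0.363 and 0.209 CPM in control, and it was not called (0.79 ± 0.46, adjusted p = 0.140). Without control library 1, the highest of that group, Klf13 passed with adjusted p = 0.0173 in full-length, 0.0361 for delta-IDR, and 0.0152 for delta-CC-LCD. With the libraries summed it did not pass (0.206, 0.316 and 0.180).

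The deletions were then set against the full-length group. Frmd5 reads were too few to check the constructs, and line, clone or construct level cannot be told apart from the deletion. In delta-IDR, 4 members were lower and 0 higher than in full-length, and 25.3% of all genes were called, 11.7% higher and 13.6% lower. These were Klf5 (-0.58 ± 0.07, adjusted p = 4.99e-07), Klf10 (-0.47 ± 0.06, adjusted p = 1.55e-06), Klf4 (-0.41 ± 0.11, adjusted p = 0.00596) and Klf9 (-0.30 ± 0.05, adjusted p = 6.02e-06). The groups did not overlap for any of the 4. The members' median was -0.22, against 0.00 over all genes. Klf15 did not overlap either but missed the threshold (-0.11 ± 0.05, adjusted p = 0.0632), and it passed at 0.0485 without delta-IDR library 4. With the libraries summed Klf15 was at 0.189. Of the 4 calls, 3 were of genes that stood above control and 1, Klf4, was of a gene that stood below it, so delta-IDR was nearer to control than full-length for Klf5, Klf9 and Klf10 and farther from it for Klf4.

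In delta-CC-LCD, 5 members were lower and 1 higher than in full-length, while 19.3% of all genes were called, 8.42% higher and 10.9% lower. Klf4 (-0.64 ± 0.11, adjusted p = 0.000175), Klf10 (-0.36 ± 0.06, adjusted p = 0.000120) and Klf9 (-0.28 ± 0.05, adjusted p = 4.30e-05) were lower without overlap. With the libraries summed these 3 were the calls that held. Klf7 (-0.35 ± 0.12, adjusted p = 0.0302), Klf5 (-0.22 ± 0.07, adjusted p = 0.0231) and Klf15 (0.13 ± 0.05, adjusted p = 0.0363) were lost when summed, with adjusted p of 0.111, 0.0845 and 0.0870. Klf5 was also lost without delta-CC-LCD library 3 or 4 or full-length library 1 or 3, with adjusted p up to 0.115, and in a fit of the 2 groups alone (0.121). Klf7 was lost without delta-CC-LCD library 2 or 4 or full-length library 1, 2 or 4, with adjusted p up to 0.114, and in a fit of the 2 groups alone (0.0755). Klf15 was lost without delta-CC-LCD library 1, 2 or 4 or full-length library 1, 3 or 4, with adjusted p up to 0.104, and with no filter on low counts (0.0765). The members' median was -0.25, against -0.01 over all genes.

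Between the deletions, delta-IDR minus delta-CC-LCD, 3 members were lower and 0 higher, with 22.3% of all genes called, 11.6% higher and 10.7% lower. Klf5 (-0.36 ± 0.07, adjusted p = 0.000289), Klf15 (-0.25 ± 0.05, adjusted p = 0.000123) and Klf3 (-0.23 ± 0.06, adjusted p = 0.00536) were lower in delta-IDR, in groups that did not overlap. Klf9 was at -0.02 ± 0.05 (adjusted p = 0.788), with 125 to 133 CPM in delta-IDR and 126 to 133 CPM in delta-CC-LCD. Klf4 passed without delta-CC-LCD library 1 (0.34, adjusted p = 0.0385), and Klf10 passed without delta-CC-LCD library 4 (-0.17, adjusted p = 0.0320). With all libraries Klf4 was at 0.22 ± 0.12 and Klf10 at -0.11 ± 0.06. Neither passed with the libraries summed (adjusted p = 0.197 for Klf4 and 0.280 for Klf10).

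**Figure D3:**
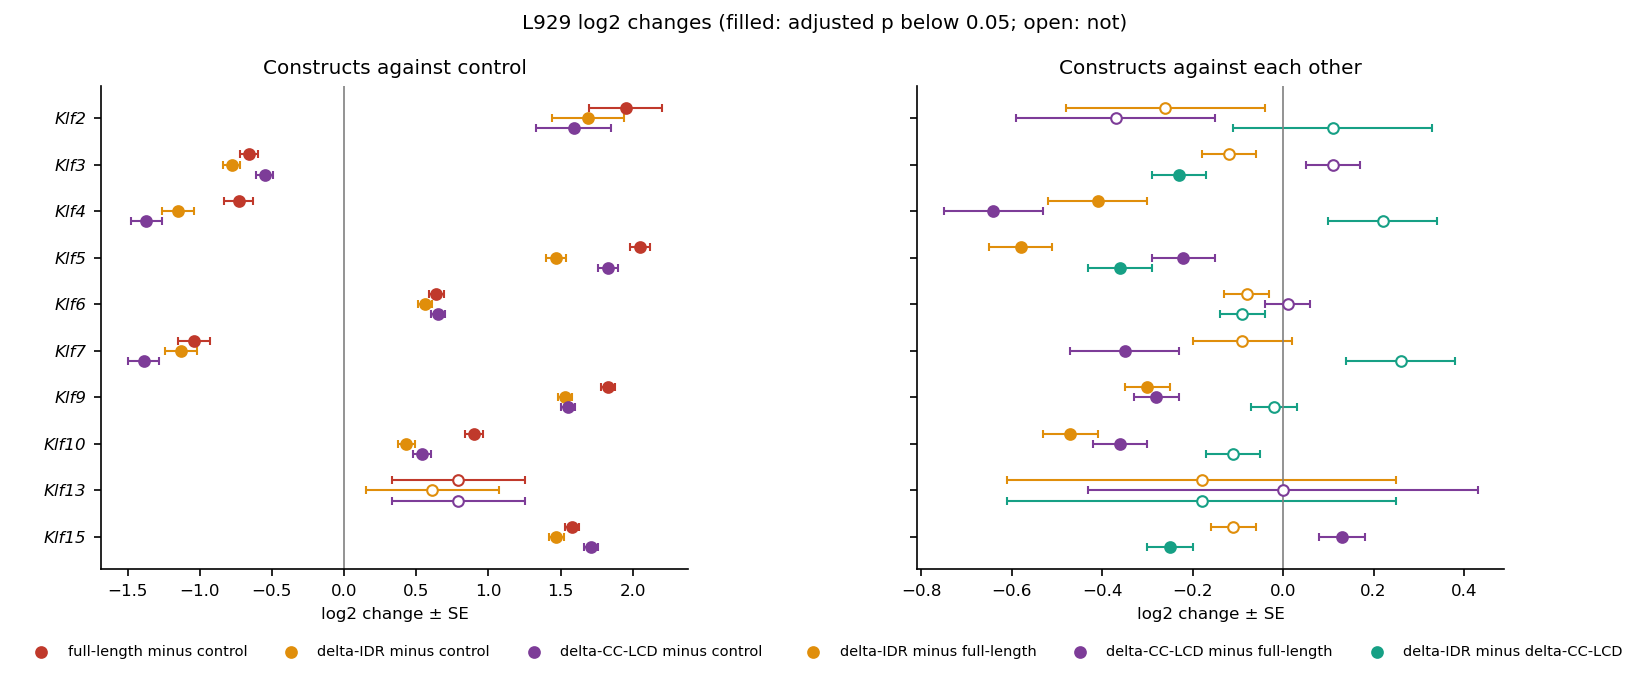
Log2 changes ± SE of the 10 KLF genes in L929, on the left for the 3 construct groups minus control and on the right for the constructs minus each other. Filled points passed an adjusted p of 0.05 and open points did not. On the left 9 genes are filled in each comparison; on the right 4 are filled for delta-IDR minus full-length, 6 for delta-CC-LCD minus full-length and 3 for delta-IDR minus delta-CC-LCD.

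Other genes of the KLF system were read from lists, to be set beside the share of all genes called: 59.1% for full-length, 64.4% for delta-IDR and 64.6% for delta-CC-LCD, each against control. The counts are a description and show nothing particular to a list. Of 7 other KLF genes, 2 had enough reads in L929. Klf11, a TGF-beta-induced relative of Klf10, was at -1.71 ± 0.13 in full-length, -2.16 ± 0.13 in delta-IDR, and -2.38 ± 0.14 for delta-CC-LCD, each against control and opposite in sign to Klf10. Klf16 was at 0.63 ± 0.07 in full-length, 0.55 ± 0.07 for delta-IDR, and -0.22 ± 0.07 for delta-CC-LCD, all called. Klf16 was lower in delta-CC-LCD than in full-length (-0.85 ± 0.07, adjusted p = 5.14e-10). Of 9 Sp factors, the closest relatives of the KLFs, 5 were tested, and 2 rose and 3 fell in full-length against control, with Sp2 at 0.45 ± 0.07 and Sp4 at -0.96 ± 0.14.

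Of 12 corepressor and coactivator genes, 7 rose and 2 fell in each construct group against control. The acetyltransferase Ep300 rose by 0.99 ± 0.06 in full-length, and Sin3a, whose product Klf9 and Klf10 recruit, was at -0.74 ± 0.05. Of 10 upstream regulators, 9 were tested, and in full-length 3 rose and 1 fell, with Mef2a at 0.72 ± 0.06 and Mef2d at -0.40 ± 0.05. MEF2 proteins drive Klf2 and Klf4 in endothelial cells. Of 20 genes known as KLF targets in other tissues, 17 were tested. There 6 rose and 4 fell in full-length, 8 rose and 6 fell in delta-IDR, and 7 rose and 8 fell in delta-CC-LCD, each against control. Cdkn1a, the cell cycle inhibitor p21, rose by 3.00 ± 0.05 in full-length, and Cdkn1b was at -0.97 ± 0.05. Of 8 early transcription factors outside the family, 7 rose and 0 fell in full-length, with Fos at 2.62 ± 0.15 and Junb at 2.38 ± 0.08, the opposite sign to Klf4. In delta-CC-LCD against full-length, where 19.3% of all genes were called, 6 of the 8 fell and 0 rose, among them Egr1 at -1.57 ± 0.14 and Fos at -1.10 ± 0.13.

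The genes most alike to 3 members over the 16 L929 libraries were found by Pearson's r of log2 CPM among 9676 protein-coding genes. They were Urb2 (0.997), Id2 (0.997) and Dusp1 (0.996) for Klf9, Epn2 (0.998), Wdr60 (0.997) and Tgm2 (0.997) for Klf15, and Vezt (0.98), Pgbd1 (0.97) and Palm (0.97) for Klf4. These libraries share the gap between control and construct groups, so high values are common, and r describes these libraries only.

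In neurons, DEX was set against no DEX under the control peptide. Of the 10 members, 1 was called higher and 0 lower, where 10.8% of all 17837 genes were called, 5.44% higher and 5.35% lower. Klf6 had 72.0, 81.2, 81.5 and 84.1 CPM with DEX, against 67.7, 70.8, 71.3 and 63.2 CPM without. All 4 DEX libraries exceeded the others, the lowest by little, with a log2 change of 0.22 ± 0.07 (adjusted p = 0.0308). The call was lost with the libraries summed (adjusted p = 0.182) and without DEX library 2, 3 or 4 or no-DEX library 1 or 4 (up to 0.105). Of the 7 endothelial markers, 2 were called higher and 1 lower in this comparison, with 5 at an unadjusted p below 0.05 in the same test. Of neuron, astrocyte and microglial markers 0 were called. The part of these markers in the Klf6 result was not tested. Klf10 had 38.8, 38.7, 40.2 and 42.2 CPM with DEX, against 51.4, 49.1, 55.2 and 48.7 CPM without, and the groups did not overlap. Its log2 change of -0.36 ± 0.13 missed the threshold in the fit of all groups (adjusted p = 0.0750), and it passed when the 2 groups were fitted alone (adjusted p = 0.000426). It was not called with the libraries summed (0.390), with a replicate block (0.107) or without any single library (0.0886 to 0.176).

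Klf9 and Klf15, the members described above as glucocorticoid targets, were not called for DEX against no DEX in neurons. Klf9 had 4.70, 5.64, 5.35 and 6.13 CPM with DEX, against 4.99, 5.87, 6.38 and 6.41 CPM without (-0.12 ± 0.16, adjusted p = 0.682). Klf15 had 5.05, 5.58, 4.70 and 6.47 CPM with DEX, against 4.10, 5.17, 5.16 and 6.76 CPM without (0.04 ± 0.17, adjusted p = 0.898). The groups overlapped for both genes. Of the 4 glucocorticoid targets read as a check, 1 was called in this comparison, Per1, and that call was lost with the libraries summed. Which size of change could be detected for Klf9 and Klf15 at these levels was not tested.

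The interfering peptide was next compared, dose by dose, with control peptide under the same DEX. These 5 comparisons share the 4 control libraries. Klf4 had 3.25, 3.92, 3.69 and 2.52 CPM with control peptide. With interfering peptide it had 4.24, 3.51, 4.88 and 3.49 CPM at 1 µM and 5.20, 6.63, 4.43 and 7.07 CPM at 3 µM. It had 8.23, 6.15, 7.52 and 5.68 CPM at 10 µM, 7.38, 9.29, 9.29 and 7.89 CPM at 30 µM, and 8.45, 5.31, 8.78 and 7.38 CPM at 100 µM. From 3 µM upward every library lay above every control peptide library, while the groups at neighbouring doses overlapped. Control peptide without DEX gave 2.60, 2.41, 2.65 and 2.82 CPM.

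The log2 change of Klf4 was 0.27 ± 0.19 at 1 µM (adjusted p = 0.531) and 0.81 ± 0.18 at 3 µM (adjusted p = 0.00320). It was 1.04 ± 0.17 at 10 µM (adjusted p = 8.10e-05), 1.34 ± 0.17 at 30 µM (adjusted p = 2.35e-07) and 1.16 ± 0.17 at 100 µM (adjusted p = 1.89e-06). Klf4 thus reached 2.53-fold at 30 µM and 2.24-fold at 100 µM. With the libraries summed the call at 3 µM was lost (adjusted p = 0.102) and those at 10, 30 and 100 µM held (0.0187, 0.00107 and 0.00138).

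Klf6 had 72.0, 81.2, 81.5 and 84.1 CPM with control peptide and DEX. With interfering peptide it had 79.9, 89.2, 71.7 and 94.3 CPM at 1 µM and 99.3, 88.8, 89.0 and 91.3 CPM at 3 µM. It had 88.0, 103, 84.6 and 99.1 CPM at 10 µM, 105, 107, 108 and 96.7 CPM at 30 µM, and 114, 104, 121 and 114 CPM at 100 µM. From 3 µM upward all libraries lay above those of control peptide, at 10 µM the lowest by little. The log2 change was 0.07 ± 0.07 at 1 µM, 0.21 ± 0.07 at 3 µM (adjusted p = 0.0644), 0.23 ± 0.07 at 10 µM (adjusted p = 0.0370), 0.39 ± 0.07 at 30 µM (adjusted p = 0.000111) and 0.51 ± 0.07 at 100 µM (adjusted p = 6.10e-07). At 10 µM the call was lost with the libraries summed (adjusted p = 0.268), and without control peptide library 1, 2 or 3 or interfering library 2 or 4 (up to 0.133). It was also lost with a replicate block (adjusted p = 0.0514). At 3 µM Klf6 passed with no filter on low counts (adjusted p = 0.0100), and it did not with the libraries summed (0.329).

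**Figure D4:**
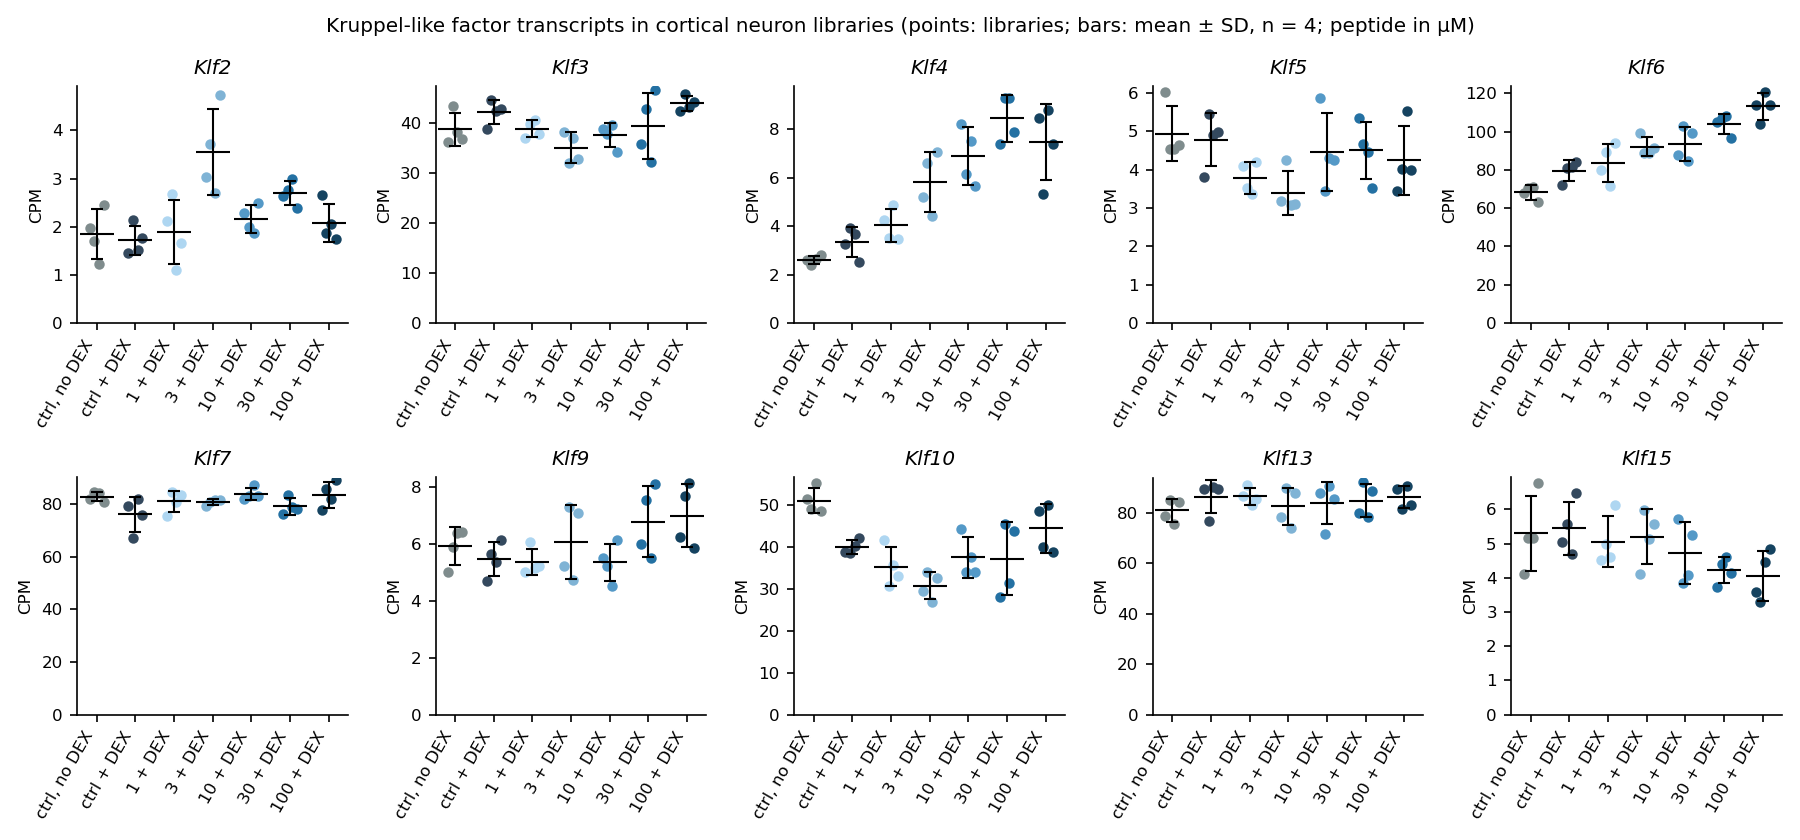
Each panel plots 1 KLF gene in cortical neurons, with CPM from 0 on the y axis and, on the x axis, control peptide (ctrl) without and with DEX and then interfering peptide at 1 to 100 µM with DEX. Points are libraries, and bars give the mean ± SD of 4. Klf4 averages 3.34 CPM with control peptide and DEX and 8.46 CPM at 30 µM, and Klf6 averages 79.7 and 113 CPM with control peptide and DEX and at 100 µM. Klf2 has its highest mean at 3 µM, where its libraries overlap those at 30 µM, and doses were not tested against each other.

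Of the 10 members, 0 were called at 1 µM by edgeR's quasi-likelihood test, 0 had an unadjusted p below 0.05 and DESeq2 called 0, where 2.29% of all genes were called, 1.4% higher and 0.891% lower. At 3 µM 2 were higher and 1 lower, against 5.25% of all genes, 2.88% higher and 2.37% lower. At 10, 30 and 100 µM 2 were higher and 0 lower, namely Klf4 and Klf6. All genes called came to 5.38% at 10 µM, 3.17% higher and 2.21% lower, and to 15.9% at 30 µM, 8.62% higher and 7.26% lower. At 100 µM they came to 23.4%, 11.9% higher and 11.5% lower. At 100 µM the members called were thus 2 of 10, a share near the background.

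At 3 µM the other 2 calls were Klf2 and Klf3. Klf2 had 3.03, 3.72, 2.71 and 4.74 CPM at 3 µM, against 1.45, 2.13, 1.52 and 1.77 CPM with control peptide. The groups did not overlap (1.05 ± 0.23, adjusted p = 0.00429). It was at 0.33 ± 0.25 at 10 µM, 0.65 ± 0.24 at 30 µM (adjusted p = 0.0615) and 0.27 ± 0.25 at 100 µM, none of them called, though the groups did not overlap at 30 µM. Klf3 had 38.3, 32.1, 37.1 and 32.9 CPM at 3 µM, against 38.9, 44.7, 42.4 and 42.9 CPM with control peptide (-0.27 ± 0.08, adjusted p = 0.0351). With the libraries summed both were lost, with adjusted p of 0.0767 for Klf2 and 0.307 for Klf3. Klf3 was also lost without control peptide library 2, 3 or 4 or interfering library 2 or 4 (up to 0.127), and in a fit of the 2 groups alone (0.0720). Klf10 had 29.6, 34.1, 26.8 and 32.5 CPM at 3 µM, below all control peptide libraries. It was not called in the fit of all groups (-0.38 ± 0.13, adjusted p = 0.101), and it passed with these 2 groups fitted alone (adjusted p = 0.0106). It was not called with the libraries summed (0.501) or without any single library (0.104 to 0.226).

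Klf2 and Klf4 are also expressed by endothelial cells and microglia. The 7 endothelial markers summed to 114 to 122 CPM at 3 µM, 112 to 127 at 10 µM, 120 to 128 at 30 µM and 114 to 123 at 100 µM, against 111 to 118 CPM with control peptide and DEX. The 6 microglial markers summed to 23.7 to 25.0 CPM at 3 µM, 19.0 to 26.4 at 10 µM, 25.7 to 27.1 at 30 µM and 24.6 to 28.1 at 100 µM, against 21.2 to 24.0 CPM. Of the microglial markers 0 of 6 were called at any dose by edgeR's quasi-likelihood test or by DESeq2, with 0 or 1 at an unadjusted p below 0.05. At 1 µM, where Klf4 and Klf2 were not called, the endothelial sum was 93.7 to 110 CPM. There 1 of the 7 markers, Emcn, was called lower (-0.97 ± 0.26), with 3 called by DESeq2 and 5 at an unadjusted p below 0.05. Among the other doses Kdr was called at 3 µM (0.28 ± 0.08) and at 30 µM (0.34 ± 0.08), and neither call held with the libraries summed (adjusted p = 0.257 and 0.0583). At 10 and 100 µM 0 of the 7 were called by either tool, with 2 and 0 at an unadjusted p below 0.05. The 6 neuron markers summed to 3240 to 3400 CPM at 100 µM, against 2880 to 3140 CPM. The part of these cells in the Klf2 and Klf4 results was not tested.

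Over the 20 interfering peptide libraries, the slope on log10 dose called 2 members higher and 0 lower, where 19.4% of 17349 genes were called, 9.46% higher and 9.91% lower. Klf4 rose by 0.45 ± 0.09 log2 units per 10-fold dose (adjusted p = 0.000263) and Klf6 by 0.21 ± 0.03 (adjusted p = 5.18e-06). Both held with the libraries summed (adjusted p = 0.0128 and 0.00171) and with each library left out. The slope of Klf3 was 0.11 ± 0.04 (adjusted p = 0.0621), of Klf10 0.19 ± 0.07 (0.0626), of Klf9 0.18 ± 0.07 (0.0731) and of Klf15 -0.19 ± 0.08 (0.0717). These 4 crossed the threshold when certain single libraries were left out. Klf3 did so without 1 µM library 2 or 3 or 30 µM library 1 or 3 (down to 0.0221). Klf10 did so without 1 µM library 1 or 30 µM library 1 or 3 (down to 0.0163) and with DESeq2 (0.0465), and Klf9 without 3 µM library 2 or 4 (down to 0.0390). Klf15 did so without 100 µM library 4 (0.0490). With the libraries summed none of these was called, at 0.226 for Klf3, 0.244 for Klf10, 0.196 for Klf9 and 0.142 for Klf15. Klf7, at 0.01 ± 0.02, and Klf13, at 0.01 ± 0.03, had slopes near 0. Over the same libraries 3 of the 7 endothelial markers rose with dose, Flt1 by 0.19 ± 0.04, Cdh5 by 0.16 ± 0.04 and Pecam1 by 0.12 ± 0.04, and the 1 µM group, with the lowest endothelial sum of the 5, is the low end of that slope. With dose 3 of 6 neuron markers and 3 of 6 astrocyte markers also rose, 1 of 6 fibroblast markers tested rose, 2 of 7 oligodendrocyte markers fell, and 0 of 6 microglial markers were called by edgeR, with 1 at an unadjusted p below 0.05 and 1 by DESeq2. The part of these markers in the Klf4 and Klf6 slopes was not tested.

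Klf15 and Klf7 were near the threshold at 100 µM. Klf15 had 3.58, 3.30, 4.46 and 4.85 CPM at 100 µM, against 5.05, 5.58, 4.70 and 6.47 CPM with control peptide and DEX, and the groups overlapped (-0.43 ± 0.17, adjusted p = 0.0624). It passed without control peptide library 3 (0.0452) or interfering library 4 (0.0415), and with a replicate block (0.0494). With the libraries summed it was at 0.146, and other single libraries left out gave up to 0.204. Klf7 had 77.6, 85.9, 81.8 and 89.0 CPM at 100 µM, against 79.4, 67.0, 82.1 and 76.0 CPM (0.13 ± 0.05, adjusted p = 0.0557). It passed without control peptide library 1 or 3 or interfering library 1 (down to 0.0204), with DESeq2 (0.0431) and with RLE in place of TMM scaling (0.0448). Summed libraries gave 0.213 for Klf7, and other single libraries left out gave up to 0.324. Klf9 was at 0.35 ± 0.15 (adjusted p = 0.0881), Klf13 at 0.00 ± 0.07 (adjusted p = 0.979) and Klf5 at -0.17 ± 0.18 (adjusted p = 0.524).

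The last comparison set DEX with 100 µM interfering peptide against control peptide without DEX, so that both DEX and peptide differ. Again 2 members were higher and 0 lower, where 35.1% of all genes were called, 17.4% higher and 17.7% lower. Klf4 had 8.45, 5.31, 8.78 and 7.38 CPM, against 2.60, 2.41, 2.65 and 2.82 CPM (1.51 ± 0.18, 2.85-fold, adjusted p = 5.26e-09). Klf6 had 114, 104, 121 and 114 CPM, against 67.7, 70.8, 71.3 and 63.2 CPM (0.73 ± 0.07, 1.66-fold, adjusted p = 1.12e-10). Neither gene's groups overlapped. Of cell type markers, 4 of 7 oligodendrocyte and 3 of 6 mural and meningeal markers tested were called lower here. Called higher were 2 of 7 endothelial, 2 of 6 neuron and 2 of 6 astrocyte markers. Fibroblast markers gave 2 higher and 2 lower of 6 tested, and microglial markers 0 of 6. The part of these markers in the Klf4 and Klf6 results was not tested. The members' median was 0.13, against -0.01 over all genes. Klf3 was at 0.18 ± 0.08 (adjusted p = 0.0677) and passed without no-DEX library 2 (0.0228), with no filter on low counts (0.0324) and in a fit of the 2 groups alone (0.0303). Klf10 was at -0.20 ± 0.13 (adjusted p = 0.230) and passed in that last fit (0.0334). Klf15 was at -0.39 ± 0.17 (adjusted p = 0.0752) and passed without no-DEX library 1 (0.0328) or interfering library 4 (0.0434). With the libraries summed the adjusted p was 0.217 for Klf3, 0.506 for Klf10 and 0.146 for Klf15.

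Of the 7 other KLF genes, 5 were tested in neurons. The list counts at 100 µM stand beside 23.4% of all genes called, 11.9% higher and 11.5% lower, and show nothing particular to a list. At 100 µM against control peptide with DEX, Klf16 rose by 0.31 ± 0.09 and Klf14 was at -1.18 ± 0.41, and neither held with the libraries summed (adjusted p = 0.0643 for Klf16 and 0.0727 for Klf14). Klf8 and Klf12, repressors that use CtBP, ran from 20.7 to 29.9 CPM and from 64.4 to 88.5 CPM. Of 7 Sp factors tested, 2 rose and 1 fell at 100 µM, with Sp1 at 0.25 ± 0.05 and Sp2 at -0.36 ± 0.09. Of the 12 corepressor and coactivator genes, 6 rose and 0 fell at 100 µM, with Sin3a at 0.33 ± 0.05 and Ncor1 at 0.22 ± 0.04. Of the 10 upstream regulators, 4 rose and 3 fell at 100 µM, with Mef2d at 0.41 ± 0.05 and the ubiquitin ligase Btrc at -0.21 ± 0.05. Of 19 KLF targets tested, 1 rose and 1 fell at 100 µM, Cdkn1b at 0.15 ± 0.05 and Pdgfa at -0.33 ± 0.12, and both were lost with the libraries summed (adjusted p = 0.169 for Cdkn1b and 0.144 for Pdgfa).

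Of the 8 early transcription factors outside the family, 0 were called at 1 µM by edgeR's quasi-likelihood test, with 1 at an unadjusted p below 0.05 and 0 by DESeq2. At higher doses 5 rose at 3 µM, 5 at 10 µM, 7 at 30 µM and 6 at 100 µM, and 0 fell. All genes called higher came to 2.88%, 3.17%, 8.62% and 11.9%. The list was chosen with earlier results of these data known, so its counts are a description and no test against that share. Of the 5 at 3 µM, Fos held with the libraries summed (adjusted p = 0.003), and Egr1, Junb, Ier2 and Srf did not (0.136 to 0.288). At 100 µM Egr1 was at 3.03 ± 0.15, Fos at 2.85 ± 0.12, Junb at 2.04 ± 0.14 and Egr3 at 1.13 ± 0.16. Klf4, at 1.16 ± 0.17, was among them in size at 100 µM, and Klf6, at 0.51 ± 0.07, was smaller. Over the 28 neuron libraries, the genes most alike to Klf4 among 10839 were Sqle (r = 0.924), which makes squalene epoxide for cholesterol, and the early-response genes Fosb (0.913) and Ier2 (0.91). For Klf9 they were Traf3 (0.717), Prnp (0.686) and Carhsp1 (0.664), and for Klf15 Wscd1 (0.694), Arrb1 (0.693) and Ighmbp2 (0.688). The 28 libraries share 7 treatment groups, so these r describe the libraries only.

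**Figure D5:**
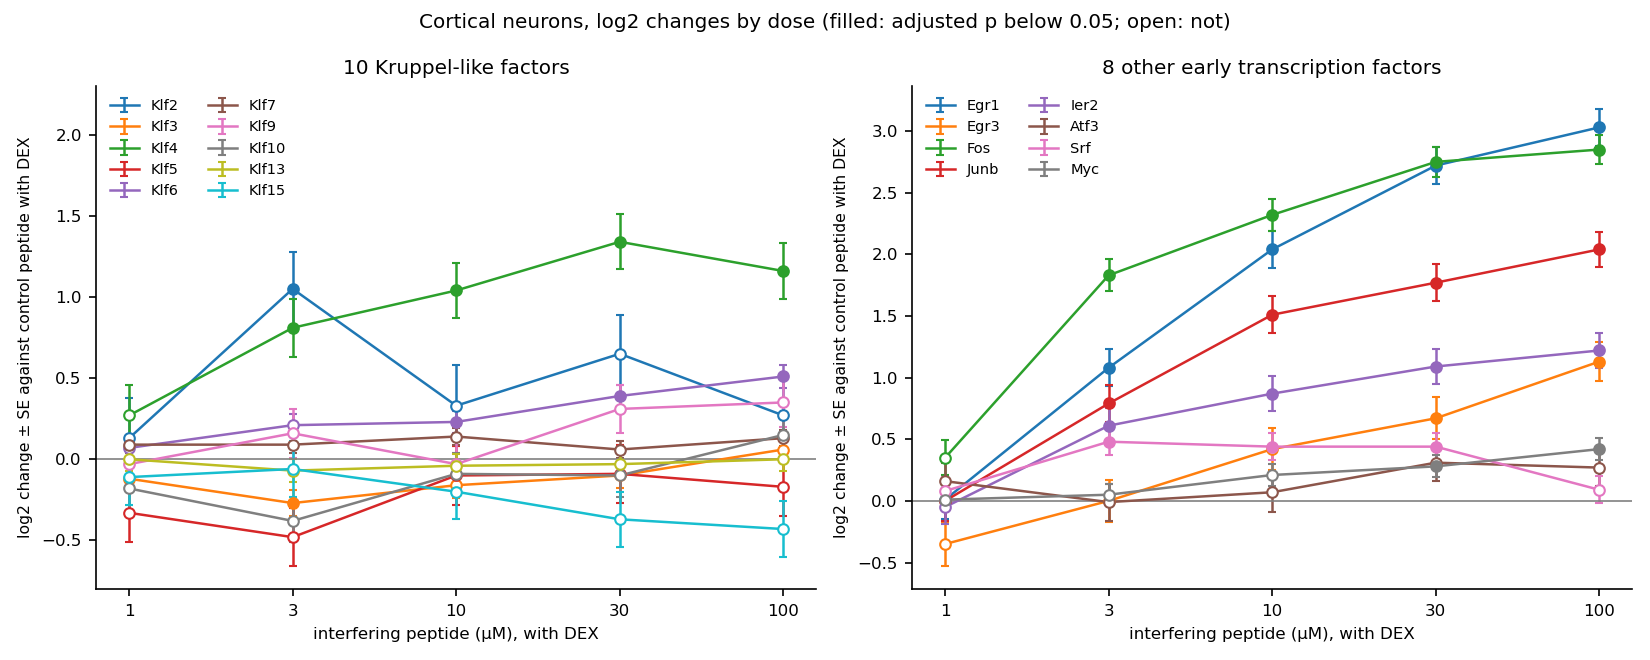
Log2 changes ± SE in cortical neurons for interfering peptide at 1 to 100 µM minus control peptide, all with DEX, for the 10 KLF genes on the left and 8 other early transcription factors on the right, on y axes of different range. Filled points passed an adjusted p of 0.05 and open points did not. Klf4 reaches 1.34 at 30 µM and Klf6 0.51 at 100 µM, while Egr1 reaches 3.03 and Fos 2.85 at 100 µM.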

How the data were processed

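Poly(A) RNA of 44 mouse libraries was sequenced after random-hexamer priming. The authors deposited raw read counts per gene in 1 table for L929 and 1 for neurons, aligned with HISAT2 2.2.1 to mm10 per the submitters' processing notes. Counting tool, annotation and strand use: not given in the sources used here. Columns were matched to samples by title. Both tables hold 54532 genes and each was normalized by itself.

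From the deposited counts, edgeR 4.0.16 in R 4.3.3 gave TMM factors, a filterByExpr filter and robust quasi-likelihood tests, with all groups of a table in 1 fit and Benjamini-Hochberg adjustment over all genes tested (14118 in L929, 17837 in neurons, 17349 for the dose slope). A call is an adjusted p below 0.05 with no fold minimum. The pipeline was tested on simulated counts. Members, gene lists and marker lists were chosen with earlier results of these data known. All 10 members are named, and from each list up to 4 called genes with the smallest p, of which some are printed. Endothelial calls were named because of their counts. Genes alike to Klf4, Klf9 and Klf15 were the 3 with the highest r at a mean of at least 5 CPM.

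Alternatives were DESeq2 1.42.0, RLE factors, no filter, a replicate block, libraries 1 and 3 summed and 2 and 4 summed, the compared groups alone, dose as rank, and each library left out.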

Additional observations from a re-analysis of the deposited data

Results flagged for a closer look

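In 5 of 110 sets of 4 libraries, each set being 1 member in 1 group, a single library lay far from the other 3. Its gap to the nearest, divided by the range of the 4, was above Dixon's 95% critical value. Chance gives about 1 in 20 sets. Klf6 had 282 CPM in delta-CC-LCD library 2, with the others at 251 to 256 CPM. Klf7 had 19.4 CPM in L929 control library 1, with the others at 16.6 to 17.0 CPM. Klf5 had 6.02 CPM in library 1 of control peptide without DEX, with the others at 4.53 to 4.65 CPM. At 3 µM interfering peptide Klf5 had 4.25 CPM in library 2, with the others at 3.07 to 3.18 CPM. Klf13 had 76.7 CPM in library 2 of control peptide with DEX, with the others at 89.4 to 90.1 CPM.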

How the results depend on the processing

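No member's change turned sign past the threshold under any alternative run. Calls of the 10 members were the same in 138 of 140 values with DESeq2, 139 with RLE and 137 with no filter on low counts; 3 of the 130 group values lost their call and 4 gained one with the compared groups alone. Summing libraries 1 and 3, and 2 and 4, ended 8 calls and lowered the number of genes called to 1522 for delta-CC-LCD minus full-length (3 members), 2088 for delta-IDR minus delta-CC-LCD, 307 for DEX minus no DEX (0 members), 81, 95 (0 members), 107 (1 member), 714 and 1812 at 1, 3, 10, 30 and 100 µM, 4070 for 100 µM with DEX minus no DEX, and 1514 for the slope. With all libraries these counts were 2727, 3147, 1925, 409, 937, 960, 2833, 4167, 6259 and 3361. With the compared groups alone 2 members were called for DEX minus no DEX, 4 for 100 µM with DEX minus no DEX, and 378 genes at 3 µM.

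Leaving out each library gave 3 to 5 members for delta-CC-LCD minus full-length, 1139 to 1796 genes and 0 to 1 members for DEX minus no DEX, 227 to 429 genes at 1 µM, 435 to 1119 at 3 µM, 506 to 1010 genes and 1 to 2 members at 10 µM, 2 to 4 members at 100 µM and 2 to 4 for the slope. Replicate numbers did not pair the libraries: 52 correlations of deviations between same-numbered libraries ran from -0.104 to 0.088, and in 11 of these 52 pairs of a comparison and a number, in which libraries recur, the best match was the same number. A replicate block left 1 member called at 10 µM, ending the Klf6 call, gained Klf15 at 100 µM and changed no other member's call. Klf2 and Klf13 in L929 and Klf2, Klf4, Klf5, Klf9 and Klf15 in neurons averaged under 10 CPM in every group, and which size of change could be detected for them was not tested.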

Other observations

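Libraries 1 and 3 of a neuron group often did not overlap libraries 2 and 4 in the level of a member. Over all 17837 genes tested this held in a median of 3 of the 7 groups. It held in 6 groups for Klf10, in 5 for Klf3 and Klf13, in 4 for Klf4, Klf9 and Klf15, in 3 for Klf2 and Klf7, and in 2 for Klf5 and Klf6. Of all genes 5.48% reached at least 6 groups. At 30 µM interfering peptide Klf10 had 28 and 31.5 CPM in libraries 1 and 3 and 45.5 and 43.9 CPM in libraries 2 and 4. At 100 µM the order was the other way round, with 48.7 and 50.1 CPM in libraries 1 and 3 and 40.1 and 38.9 CPM in libraries 2 and 4. In L929 such gaps were seen in 3 of 4 groups for Klf7, Klf10 and Klf13, in 2 for Klf9, in 1 for Klf2, Klf3, Klf4, Klf5 and Klf6, and in 0 for Klf15, against a median of 2 over all 14118 genes tested.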
